A study of Hydra vulgaris with 30 samples.

Results

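The comparison of UNC0379 with DMSO at 0 hours postamputation (hpa) rests on 6 of the 30 libraries of the series, 3 per group, which were chosen by their labelled treatment and time. All polyps came from 1 clonal culture of *Hydra vulgaris*, strain Ind-Pune, and no transgene or mutation is labelled. The treated polyps received UNC0379, labelled as 150 uM in the sample characteristics and with the same number in mM in the treatment protocol, and the control polyps received its solvent, 0.2% DMSO. RNA of the tips that regenerate after decapitation was taken at the cut, and the other 24 libraries hold the same 2 treatments at 3, 8, 12 and 24 hpa. The length of exposure before the cut and the number of tips behind a library were not given for these libraries, and the labels do not say whether replicates came from separate cultures, so the p-values measure only the spread between libraries of a group, pooled over the 10 groups, which may be technical.

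UNC0379 is a small molecule that competes with the substrate of SETD8, also called KMT5A, the methyltransferase that places a single methyl group on lysine 20 of histone H4. That mark has been linked in animals both to transcribed and to silenced genes and to the compaction of chromosomes before cell division. In *Hydra*, a polyp made of a few epithelial and interstitial cell lineages, a decapitated body column closes its wound and rebuilds a head, a process in which Wnt signalling sets up the organizer. Tips at 0 hpa were taken at the cut itself, so the comparison asks how the tissue differed under the inhibitor when it was cut.

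The reads were 3′ mRNA tags counted per transcript, and the 51290 transcripts carry assembly identifiers of 2 kinds, MSTRG (15231) and Sc4wPfr (36059), with no product names. None of the 94298 transcript and gene identifiers searched was found in the reference table used here. Product names were known for 16 loci only, from the study's own locus labels, of which a few more were not used here for want of a legible identifier of their own. Cell type markers could not be looked up, so the tissue label could not be set against its markers. In bulk RNA, fewer cells of a type and less RNA per cell cannot be told apart.

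Assigned counts came to 499958, 612025 and 648321 in UNC0379 replicates 1, 2 and 3, against 760803, 472605 and 713275 in DMSO replicates 1, 2 and 3. Reads that did not align made up 50.2, 47.5 and 36.7% under UNC0379, against 16.5, 53.2 and 18.3% under DMSO. Counts were seen for 10561, 10612 and 11306 transcripts under UNC0379, against 13490, 10348 and 13315 under DMSO. The more deeply counted DMSO replicates 1 and 3 thus differed from the other 4 libraries in aligned share and in the number of transcripts seen, and thinning the 6 libraries to the smallest total gave 170 calls (46 higher, 124 lower), against 209 unthinned. The part of the aligned share in the results was not tested.

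Replicates were not equally alike. The chi-square per degree of freedom between UNC0379 replicates 1 and 2 was 2.23, against 10.02 and 13.1 for their comparisons with replicate 3. Between DMSO replicates 1 and 3 it was 2.30, against 6.57 and 5.56 for their comparisons with replicate 2. UNC0379 replicate 3 lay alone on the first axis of a multidimensional scaling of the 6 libraries (1.60, against −0.63 to −0.05 in the other 5, with 36.5% of the variance). The second axis (27.8%) parted the treatments, at 0.27 to 0.82 under UNC0379 and −0.80 to −0.29 under DMSO, so on it each library lay with its labelled group. Whether labels were exchanged could not be checked with a transcript that marks the treatment. Among 3570 transcripts with a mean of 20 CPM (counts scaled to a common library size) or more, UNC0379 replicate 3 was below both other UNC0379 libraries by more than 2-fold for 356, and DMSO replicate 2 below both other DMSO libraries for 169, against 11 to 79 for the other 4 libraries. The biological coefficient of variation was 33.4% under UNC0379 and 21.9% under DMSO, within 8.83 to 52.8% over the 10 groups.

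More transcripts were lower than higher under UNC0379 at the cut. Of 5046 transcripts with enough counts to test, 209 (4.14%) passed an adjusted p of 0.05 in edgeR's quasi-likelihood test, 59 of them higher (1.17%) and 150 lower (2.97%). The median log2 fold change was 1.34 over the 59 and −1.31 over the 150, with quartiles of 1.03 to 1.91 and −1.84 to −0.99, whereas the median over all tested transcripts was 0.0003. Changes of more than 2-fold made up 45 of the 59 and 111 of the 150, against 508 of all 5046, an excess that the choice of the calls favours. At an unadjusted p of 0.05, 795 transcripts passed. The spread behind these tests is shared with the 24 later libraries, and a fit of the 6 libraries alone called 81 transcripts (21 higher, 60 lower), 77 of them among the 209.

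**Figure D1:**
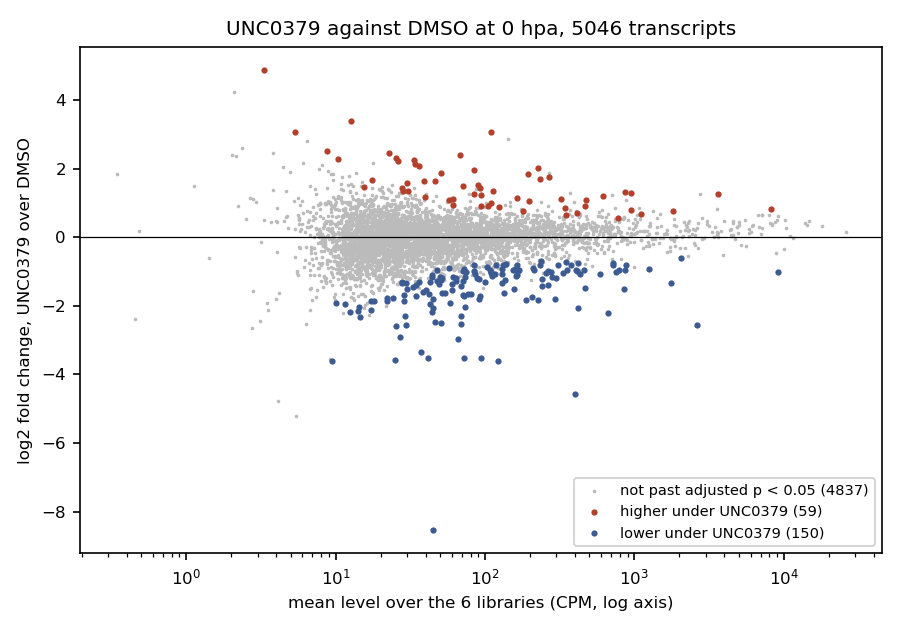
Each point is 1 of 5046 transcripts, with its mean level over the 6 libraries at 0 hpa in CPM on a log x axis and its fitted log2 fold change of UNC0379 over DMSO on the y axis. The 150 lower transcripts outnumber the 59 higher ones and reach larger fold changes, and the lowest point belongs to a transcript with no count under UNC0379, whose fitted value is not a bound.

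The transcripts that differed made up a measurable share of the RNA. Together the 150 lower ones had 23386, 22710 and 26827 CPM in the 3 UNC0379 libraries, against 60442, 53095 and 54536 CPM in the 3 DMSO libraries. The 59 higher ones had 30666, 33960 and 34151 CPM under UNC0379, against 14442, 18967 and 16024 CPM under DMSO. The sums do not overlap, which the choice of these transcripts by their difference fixes.

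Single libraries shaped the lists differently. For the 150 lower transcripts the highest UNC0379 value was that of replicate 3 in 75, and the lowest DMSO value was that of replicate 2 in 86, so these 2 libraries most often lay nearest to the other group. Without UNC0379 replicate 3 the fit called 242 transcripts (78 higher, 164 lower), and without DMSO replicate 2 it called 264 (103 higher, 161 lower). Without both it called 297, of which 154 were among the 209. Leaving out any of the other 4 libraries gave 118 to 122 calls. In all 6 of these leave-one-out fits 79 of the 209 calls held, 19 higher and 60 lower.

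The DMSO group was then reduced to the library least like the rest of it. With only DMSO replicate 2 against the 3 UNC0379 libraries, its spread taken from the other groups, 50 transcripts were called, 6 higher and 44 lower, and 42 of them were among the 209. That fit has 1 control library and fewer counts, and the share of lower calls in it was 88.0%, against 71.8% with all libraries. Without UNC0379 replicate 3 and the 2 libraries of 24 hpa that spread widely (replicate 3 of each treatment), 521 transcripts were called, 240 higher and 281 lower, and 195 of them were among the 209.

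Calls were spread unevenly over levels. Of 4 equal groups of tested transcripts by mean level, the lowest (up to 18.1 CPM) held 7 higher and 9 lower calls, and the highest (from 91.8 CPM) held 30 higher and 71 lower calls. Calls made up 4.98% of the 3674 tested transcripts with Sc4wPfr identifiers and 1.90% of the 1372 with MSTRG identifiers, and this difference was not tested. MSTRG transcripts held 14 higher and 12 lower calls, and Sc4wPfr transcripts 45 higher and 138 lower calls. The libraries of the 2 groups did not overlap for 52 of the 59 higher and 141 of the 150 lower calls. Over all tested transcripts they did not overlap for 7.02% (higher) and 10.2% (lower). The calls were chosen by the difference between these same libraries, so the contrast lends them no weight.

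The lower transcript with the smallest p was Sc4wPfr_1211.g17518.t1. It had 760.5, 822.4 and 704.5 CPM in the UNC0379 libraries, against 5456, 4072 and 3820 CPM in the DMSO libraries, so that every control library held several times the level of every treated one. Its log2 fold change was −2.54 (SE 0.18, adjusted p = 2.1e-12), and the group means were 762 ± 59.0 CPM under UNC0379 and 4449 ± 881 CPM under DMSO (SD, n = 3 each). In the 24 libraries taken at 3 to 24 hpa it lay between 483 and 1051 CPM in both treatments, so the UNC0379 libraries at 0 hpa were at the later level and the DMSO libraries at 0 hpa were far above it. After the cut the treatments differed in the test at 8 hpa alone of the 4 later times, by a log2 fold change of −0.93 (adjusted p = 0.0002).

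The second lower transcript, Sc4wPfr_272.g11338.t1, had the same shape. It had 39.2, 23.3 and 35.1 CPM under UNC0379, against 836, 508 and 948 CPM under DMSO, and its log2 fold change was −4.55 (SE 0.36, adjusted p = 2.7e-11). From 3 hpa on it lay between 14.9 and 101 CPM in the UNC0379 libraries and between 0 and 64.1 CPM in the DMSO libraries. At 24 hpa the sign was turned round, with 42.0, 37.9 and 101 CPM under UNC0379 against 0, 2.44 and 6.97 CPM under DMSO (log2 fold change 3.71, adjusted p = 7.9e-05). These were 17, 23 and 13 counts against 0, 1 and 4, and the 101 CPM came from a library of 146798 assigned counts.

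Sc4wPfr_1056.g20037.t1 was the higher transcript with the smallest p. It had 113, 117 and 115 CPM in the UNC0379 libraries, against 23.7, 11.2 and 27.2 CPM in the DMSO libraries, with a log2 fold change of 2.39 (SE 0.27, adjusted p = 1.6e-07). The treated libraries were close to each other and, by the rule of choice, all lay above the control libraries. It stayed higher under UNC0379 at 3, 8 and 12 hpa, by log2 fold changes of 1.78, 1.65 and 1.48 that each passed the test, and the difference at 24 hpa (0.47, adjusted p = 0.26) did not. Its level was lower at 0 hpa than later in both treatments, since the UNC0379 libraries from 3 hpa on had 172 to 340 CPM and the DMSO ones 61.3 to 213 CPM.

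MSTRG.13492.1, the second higher transcript, had 293, 339 and 429 CPM under UNC0379, against 83.7, 152 and 101 CPM under DMSO. Its log2 fold change was 1.68 (SE 0.24, adjusted p = 1.1e-05). None of the later comparisons passed the test, with log2 fold changes of 0.26 to 0.43. From 3 hpa on the UNC0379 libraries had 229 to 497 CPM and the DMSO ones 187 to 352 CPM. With DMSO replicate 2 as the only control its log2 fold change was 1.17 and the call was lost (adjusted p = 0.131).

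**Figure D2:**
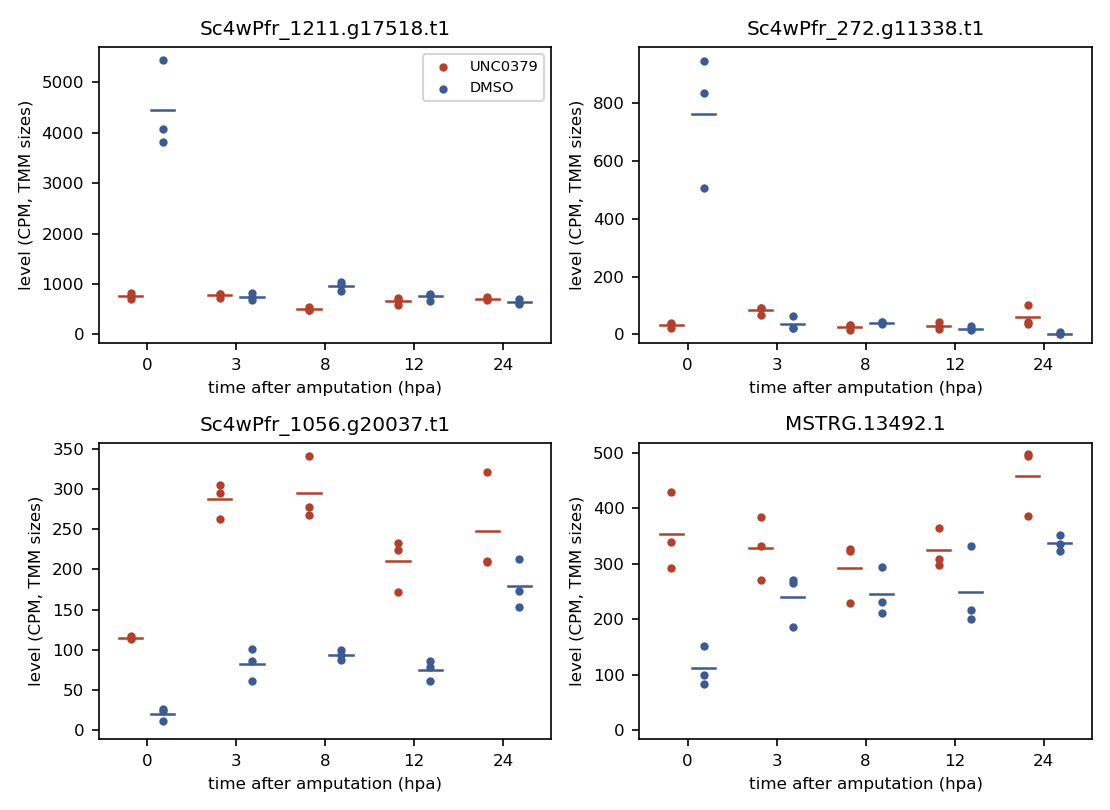
The level in CPM of the 4 transcripts named by rule is drawn for each of the 30 libraries, with UNC0379 in red and DMSO in blue at every time and a line at each group's mean. In each panel the 3 DMSO libraries at 0 hpa stand apart from all other libraries, above them for the 2 lower transcripts (3820 CPM or more and 508 CPM or more) and below them for the 2 higher ones (27.2 CPM or less and 152 CPM or less).

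A further transcript, Sc4wPfr_343.g21158.t1, was singled out after its values were seen. It had 0 counts in all 3 UNC0379 libraries, against 49, 61 and 52 counts in the DMSO libraries. Over the pooled counts of a group, on normalized (TMM) library sizes, it had 81.7 CPM under DMSO (95% exact Poisson interval 69.6 to 95.3, for counting error only). Under UNC0379 it had 0 of 1760304 assigned counts. On the group's summed TMM library size of 1641100, a floor of 3 counts allows up to 1.83 CPM. From the lower limit of that interval and this floor, it was at least 38.1-fold lower under UNC0379 as far as counting error goes. The single DMSO libraries had 61.2, 137 and 70.7 CPM, a spread wider than that interval, so 38.1-fold is no bound across libraries. The transcript passed the filter on counts only through these DMSO libraries. In the 24 later libraries it had 0 to 4 counts, so the DMSO libraries at 0 hpa were again the ones that stood out. Altogether 7 transcripts had no count under UNC0379 and at least 20 over the 3 DMSO libraries, and in 6 of them DMSO replicate 2, the library with the fewest counts, had under 5. The reverse, 20 or more counts under UNC0379 and none under DMSO, was not seen for any transcript.

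The shape shared by the named transcripts was then counted over all 5046 tested transcripts, with no regard to calls. The 3 UNC0379 libraries at 0 hpa lay above all other 27 libraries for 7 transcripts (0.139%) and below all of them for 6 (0.119%). The 3 DMSO libraries at 0 hpa lay above all others for 58 (1.15%) and below all of them for 17 (0.337%). Among the other 8 groups the counts were 5 to 38 above and 0 to 51 below, with the largest in the UNC0379 group at 24 hpa. Of the 150 transcripts lower under UNC0379, 40 were among the 58, and of the 59 higher ones 11 were among the 17. These counts share the 0 hpa libraries with the calls, so they describe the calls and lend them no weight. A transcript could also pass the filter on counts through 1 group alone. Such a transcript can lie above the other libraries for that group but not below them. DMSO replicates 1 and 3 at 0 hpa saw 13490 and 13315 transcripts, the most of the 6 libraries, and the part of this in the counts was not tested. The UNC0379 libraries spread more than the DMSO ones, which bears on such a count. On the pairs left when 1 library of a group was set aside, UNC0379 lay above the other 27 for 19 to 50 transcripts (0.377 to 0.991%) and DMSO for 1.43 to 3.21%, the largest of each without UNC0379 replicate 3 and without DMSO replicate 2.

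**Figure D3:**
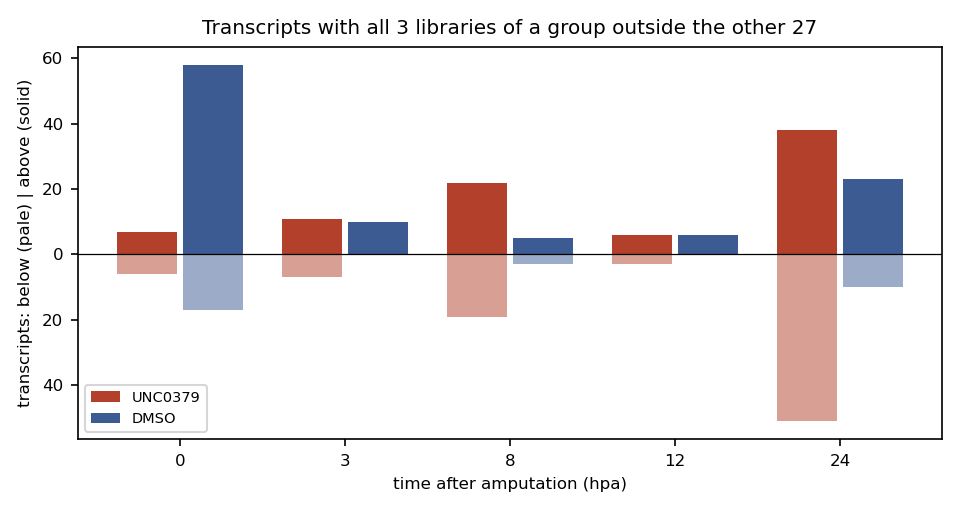
For each of the 10 groups, the bars count the tested transcripts for which all 3 libraries of the group lie above (solid, upward) or below (pale, downward) the other 27 libraries, with UNC0379 in red and DMSO in blue at each time. The DMSO group at 0 hpa has the tallest upward bar (58 transcripts). The UNC0379 group at 0 hpa has 7 above and 6 below, and some later groups have fewer.

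The later comparisons contrast other libraries than the 6, although all 30 share the filter, the scaling and the estimate of spread, and they were used to see which of the 0 hpa differences recurred. At 3, 8, 12 and 24 hpa the same fit called 357, 438, 315 and 373 transcripts (7.07, 8.68, 6.24 and 7.39% of those tested). Of the 209 transcripts called at 0 hpa, 71, 72, 66 and 69 were called in the same direction at these times, and 3, 10, 7 and 8 in the opposite direction. In all, 89 were called in the same direction at 1 or more later times. At 24 hpa, UNC0379 replicate 3 had only 146798 assigned counts, and 98.2% of the reads of DMSO replicate 3 did not align.

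Most of the recurring transcripts were lower ones. Of the 150, 59, 62, 58 and 59 were lower again at 3, 8, 12 and 24 hpa, that is 38.7 to 41.3%, whereas 5.47, 6.42, 4.91 and 5.31% of all tested transcripts were called lower at these times. Read the other way, these were 19.1 to 23.4% of the lower calls at each later time. Over all 150, recurring or not, the median log2 fold changes at these times were −0.59, −0.72, −0.46 and −0.64. The medians over all tested transcripts were −0.02 to 0.01. Of the 150, 48 were lower at all 4 later times. Over all tested transcripts that share cannot exceed the 4.91% called lower at 12 hpa. In all, 71 of the 150 (47.3%) were lower at 1 or more later times, against 465 of all 5046 (9.22%). The other 79 were called lower at none, and 69 of the 150 had no later call in either direction. The median level of the 150 at 0 hpa was 85.5 CPM, against 34.7 CPM over all tested transcripts. Calls at 0 hpa were more frequent at higher levels, and the shares over all transcripts were not matched for level.

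Of the 59 higher transcripts, 12, 10, 8 and 10 were higher again at 3, 8, 12 and 24 hpa, that is 13.6 to 20.3%, whereas 1.61, 2.26, 1.33 and 2.08% of all tested transcripts were called higher at these times. Over all 59, recurring or not, the median log2 fold changes at these times were 0.31, 0.22, 0.37 and 0.02. Of the 59, 18 (30.5%) were higher at 1 or more later times, against 4.64% of all tested transcripts, and 35 had no later call in either direction. The treatment effect itself was set against that at 0 hpa in a test of the interaction that shares the 0 hpa libraries. It differed for 54, 62, 35 and 60 of the 209 at the 4 later times. Over all 5046 tested transcripts it differed for 135, 173, 77 and 141 (2.68, 3.43, 1.53 and 2.79%). The 209 were chosen by their effect in those same 0 hpa libraries, which favours the excess. Whether higher and lower transcripts recurred at different rates was not tested. The median level of the 59 at 0 hpa was 92.2 CPM, and here too the shares over all transcripts were not matched for level.

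**Figure D4:**
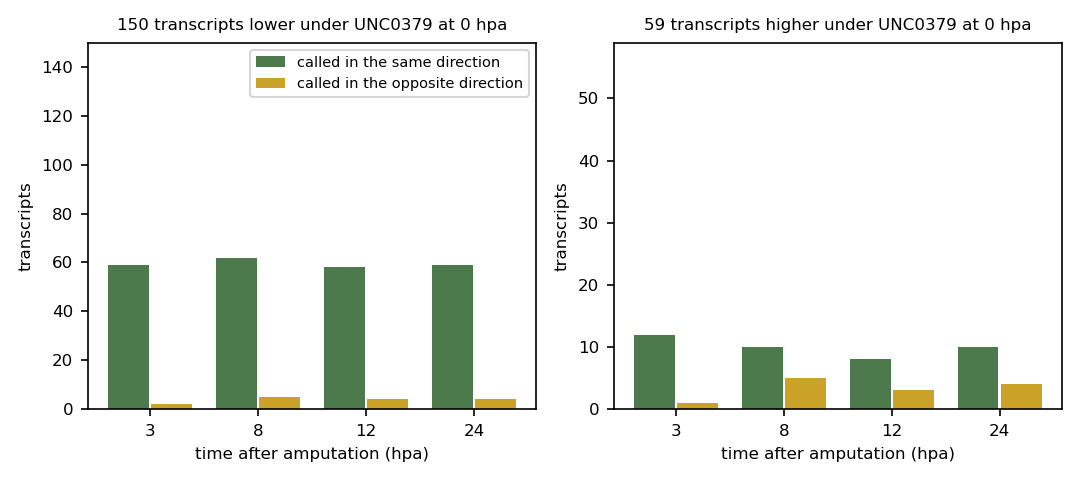
Bars count how many of the 150 lower (left) and 59 higher (right) transcripts of 0 hpa were called at each later time in the same (green) or the opposite (yellow) direction, with the y axis running to the size of the list. Between 58 and 62 of the 150 lower transcripts recur at each time, and 8 to 12 of the 59 higher ones.

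The lower transcripts that recurred and those that did not were set against the level of the later controls. For the 71 that recurred, the median log2 CPM relative to the mean of the 12 DMSO libraries at 3 to 24 hpa was −0.70 in the UNC0379 libraries at 0 hpa, 0.42 in the DMSO libraries at 0 hpa and −1.86 in the later UNC0379 libraries. For the 79 that did not recur it was −0.31 in the UNC0379 libraries at 0 hpa, 0.89 in the DMSO libraries at 0 hpa and 0.03 in the later UNC0379 libraries. The UNC0379 mean at 0 hpa fell within the range of the 12 later DMSO libraries for 59 of these 79, and the DMSO mean at 0 hpa for 20 of them. For the 71 that recurred the order was reversed, with 22 for the UNC0379 mean and 39 for the DMSO mean. For all 59 higher transcripts the corresponding counts were 39 for the UNC0379 mean and 27 for the DMSO mean. Among the 41 of them not called higher later, they were 29 and 17, and among the 18 called higher later, 10 and 10. Both 0 hpa groups entered the choice of these transcripts and the later DMSO libraries did not, so the values are given with no test.

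The question was also put from the other side, with transcripts chosen at 3, 8 and 12 hpa and read in the 6 libraries at 0 hpa, which were not among the libraries contrasted for that choice. The 161 transcripts lower under UNC0379 at all 3 of these times had a mean level of 6.22, 6.16 and 6.30 log2 CPM in the UNC0379 libraries at 0 hpa, against 6.96, 7.08 and 6.89 log2 CPM in the DMSO libraries. Every UNC0379 library was thus below every DMSO library, and replicate 3 did not stand apart here. At 3, 8 and 12 hpa the same transcripts averaged 4.97, 5.10 and 5.12 log2 CPM under UNC0379, against 7.04, 6.92 and 6.81 log2 CPM under DMSO. Their median log2 fold change was −0.80 at 0 hpa and −2.26, −2.01 and −1.91 at 3, 8 and 12 hpa, the times that chose them. At 0 hpa 151 of the 161 had a negative fold change and 52 (32.3%) were called lower, against 2.97% of all tested transcripts. The share over all transcripts was not matched for level.

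The 33 transcripts higher at 3, 8 and 12 hpa had 5.56, 5.65 and 5.47 log2 CPM in the UNC0379 libraries at 0 hpa, against 5.27, 5.05 and 5.15 log2 CPM in the DMSO libraries. These groups did not overlap either, although the gap was narrower. Their median log2 fold change was 0.49 at 0 hpa and 1.61, 1.99 and 1.78 at 3, 8 and 12 hpa. At 0 hpa 26 of the 33 had a positive fold change and 5 (15.2%) were called higher, against 1.17% of all tested transcripts.

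**Figure D5:**
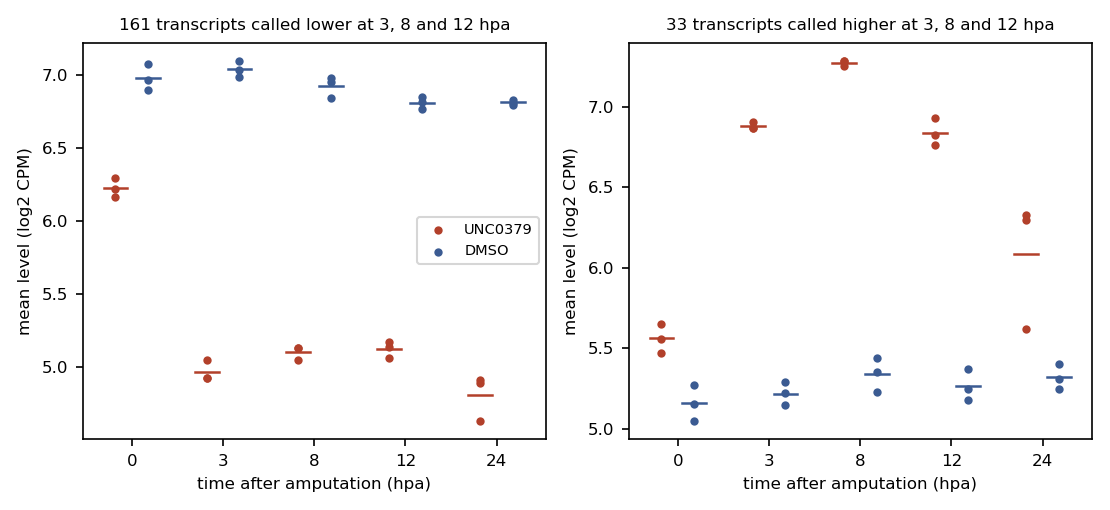
The mean log2 CPM of the 161 transcripts called lower (left) and the 33 called higher (right) under UNC0379 at 3, 8 and 12 hpa is drawn for each library, with UNC0379 in red, DMSO in blue and a line at each group's mean. At 0 hpa the UNC0379 libraries lie at 6.16 to 6.30 on the left, between the DMSO libraries and the later UNC0379 libraries, and at 5.47 to 5.65 on the right.

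Of the 16 loci with product names, 7 had no count in any of the 6 libraries at 0 hpa and 3 had enough counts to test. The transcript Sc4wPfr_489.2.g16698.t1 stands for a Brachyury protein-like product, a T-box transcription factor of the *Hydra* hypostome. It had 7, 6 and 3 counts under UNC0379, against 2, 1 and 1 under DMSO. In CPM these were 14.4, 10.8 and 5.01 under UNC0379, against 2.50, 2.24 and 1.36 under DMSO, so the groups did not overlap. The log2 fold change was 2.16 (SE 0.74, unadjusted p = 0.0061) and missed the threshold after adjustment over all transcripts (adjusted p = 0.0966). It passed without replicate 3 of UNC0379 at 0 hpa and of both groups at 24 hpa (log2 fold change 2.50, adjusted p = 0.0246). In the other alternatives that tested it with more than 1 control library the adjusted p was 0.0534 to 0.334. With DMSO replicate 2 as the only control the log2 fold change was 1.98. It had too few counts to be tested under a filter of 10 counts in 3 libraries at 0 hpa or with the 6 libraries fitted alone. The counts are few, and in the later libraries the transcript had 2.47 to 38.5 CPM under UNC0379 and 6.41 to 41.6 CPM under DMSO. These ranges pool times at which the fitted difference changed. At 3, 8, 12 and 24 hpa its log2 fold changes were 1.55, 1.11, 0.30 and −0.76. None passed the same edgeR test (adjusted p = 0.0741, 0.156, 0.886 and 0.572).

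Dickkopf-related protein 3 (Sc4wPfr_504.g10351.t1), a secreted protein of a family with several Wnt antagonists, had 28.9, 43.1 and 91.8 CPM under UNC0379, against 90.0, 85.11 and 88.4 CPM under DMSO. Replicates 1 and 2 of UNC0379 lay below all DMSO libraries, and replicate 3 lay above them. The log2 fold change was −0.66 (SE 0.33, adjusted p = 0.334), and without UNC0379 replicate 3 it was −1.28 and passed the test (adjusted p = 0.0295). At 3, 8, 12 and 24 hpa the log2 fold changes of −2.69, −2.36, −1.66 and −2.24 each passed the test, with 6.11 to 38.8 CPM under UNC0379 against 53.7 to 117 CPM under DMSO over the 12 later libraries of each treatment. The DMSO level at 0 hpa was within that later DMSO range.

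NHL repeat-containing protein 2 (Sc4wPfr_433.g11169.t1) had 49.5, 48.5 and 20.03 CPM under UNC0379, against 33.7, 17.9 and 23.1 CPM under DMSO, and its groups overlapped. The log2 fold change was 0.60 (SE 0.46, adjusted p = 0.597).

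The other loci were too thinly counted for a comparison. Villin-1, which binds actin, had 6, 1 and 3 counts under UNC0379, against 4, 1 and 4 under DMSO. Rap1 GTPase-activating protein 1, which switches off the small GTPase Rap1, had 2 counts in all under UNC0379 and 5 under DMSO, and frizzled5/8, a Wnt receptor, had 1 count in each group. An ADP-ribosyl cyclase had 0 counts under UNC0379 and 4 under DMSO, all in replicate 1. The ubiquitin ligase rnf213-alpha had 1 count under UNC0379 and 0 under DMSO, and DNA topoisomerase 2-alpha, which untangles DNA, had 0 under UNC0379 and 1 under DMSO.

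N-lysine methyltransferase KMT5A-A, the enzyme that UNC0379 inhibits, had 0 counts in all 6 libraries, which allows up to 1.83 CPM over the pooled UNC0379 counts and 1.51 CPM over the pooled DMSO counts. With 0 counts in both groups, this transcript does not check the labels, and an effect of the inhibitor on its message could not be read. Counts were also 0 in all 6 libraries for the loci of an insulin receptor substrate-related protein, a neurogenic locus notch homolog protein 1-like receptor, YTH domain-containing protein 1-like, the chromatin remodeller chromodomain-helicase-DNA-binding protein 1, casein kinase II subunit alpha-like and the protein PSR. Of the 7 loci at 0, 6 were gene models with 2 or more transcripts, among 8 such models in the 16. Over all transcripts, 17.5% of the 13208 in gene models with 2 or more transcripts had a count at 0 hpa, against 42.6% of the 38082 that were the only transcript of their model, and reads set aside as ambiguous numbered 1.10 to 1.21 per assigned read. A count of 0 at such a locus therefore does not show that the gene was silent.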

How the data were processed

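QuantSeq 3′ mRNA libraries of regenerating tips were made by the authors. Trimmomatic, HISAT2 and HTSeq appear in the submitters' processing notes. The authors deposited raw read counts per transcript, 1 file per library, with no normalization. For tool versions, genome build, annotation and strand setting, the entry is "not given in the sources used here". Totals and tests left out the 5 HTSeq summary lines of each file.

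All 30 libraries were fitted together in edgeR 4.0.16 (R 4.3.3), with 1 coefficient per group, TMM normalization, filterByExpr on the 10 groups and robust quasi-likelihood tests. P-values were adjusted by the Benjamini-Hochberg method over the 5046 transcripts tested, and the threshold was 0.05. The self-test ran on simulated counts. Levels are CPM (counts divided by TMM library sizes and scaled to a common size), and log2 CPM used a prior count of 2. No 2 files were identical. Alternatives were upper-quartile scaling, DESeq2 1.42.0, limma-voom 3.58.1, other filters and limits, the replicate block and libraries left out.

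The transcripts named were the 16 loci with product names, and the 2 higher and 2 lower with the smallest p among those whose libraries did not overlap. The comparison, lists and rules were chosen with earlier results of these data known.

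The UNC0379 and DMSO libraries of the same number deviated from their group means with correlations of 0.05, 0.09 and 0.08. For libraries of different numbers the correlations were lower, at −0.077 to 0.006. The labels do not say that a number marks a shared culture or day, so the numbers were not taken as pairs in the main fit. With the replicate block 254 transcripts were called, against 209. One count was worth 1.25 to 2.24 CPM in the 6 libraries. Intervals and floors cover counting error only.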

Additional observations from a re-analysis of the deposited data

Results flagged for a closer look

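The treatment effect of several named transcripts at a later time differed from that at 0 hpa in a test of the interaction over all transcripts in the same edgeR fit, in which the 0 hpa libraries are shared by the 4 later tests. For Sc4wPfr_1211.g17518.t1 the later log2 effect exceeded the one at 0 hpa by 2.59, 1.61, 2.38 and 2.68 at the 4 times in order (adjusted p = 4.99e-09, 4.3e-05, 9.09e-08 and 2.58e-09). For Sc4wPfr_272.g11338.t1 it exceeded that at 0 hpa by 5.64, 3.91, 5.21 and 8.26 (adjusted p = 3.09e-09, 2.16e-05, 1.38e-07 and 2.81e-10). For MSTRG.13492.1 the later effect minus that at 0 hpa was −1.25, −1.42, −1.31 and −1.25 at 3, 8, 12 and 24 hpa (adjusted p = 0.0284, 0.00865, 0.0305 and 0.0278). For Sc4wPfr_1056.g20037.t1 the 24 hpa difference of effects was −1.92 (adjusted p = 0.00104), a time at which the treatments no longer differed past the threshold. For dickkopf-related protein 3 the 3 hpa difference of effects was −2.03 (adjusted p = 0.0316). Its 0 hpa UNC0379 replicate 3 stood above the other 2 UNC0379 libraries. The 4 transcripts known by identifier alone were picked for the smallest p at 0 hpa, in the libraries that enter these tests, so a later effect nearer to 0 is favoured by the choice and the p-values are no independent evidence. Each of these differences is between fitted effects with 3 libraries per group.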

How the results depend on the processing

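The 209 calls (59 higher, 150 lower, 89 shared with a later time) became 122 (80 lower, 40 shared) with no filter on low counts, 384 (126 higher, 258 lower, 146 shared) at an unadjusted p of 0.01 with a log2 change of 0.58, and 81 (21 higher, 60 lower) when the 6 libraries were fitted alone. Leaving out each library in turn gave 118 to 264 calls, 24 to 103 higher, 82 to 164 lower and 47 to 99 shared with a later time, with 60.98 to 80.3% lower. After seeing the data, 4 further alternatives were added. Without UNC0379 replicate 3 and DMSO replicate 2, 102 transcripts were higher among 297 calls. With DMSO replicate 2 as the only control, 50 were called (6 higher, 44 lower, 34 shared). Without replicate 3 of UNC0379 at 0 hpa and of both groups at 24 hpa, 521 were called (240 higher, 281 lower, 167 shared), 53.9% of them lower against 71.8%. Thinning the 6 libraries to the smallest total gave 170 calls, of which 156 were among the 209. DESeq2 called 258, limma-voom 244 and upper-quartile scaling 200, with 202, 195 and 187 of the 209 among them. The fit with the replicate block called 254 transcripts, 208 of them among the 209. No value reversed its sign. The causes of these shifts were not tested. Of the 16 loci with product names, 13 had too few counts to test. The Brachyury-like transcript also passed the unadjusted limit.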

Other observations

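Neighbours on a scaffold, taken as gene models with consecutive numbers, did not stand out among the calls. Of the 46 lower transcripts with a tested neighbour, 2 had a lower neighbour (4.35%), against 3.76% of all 1275 tested transcripts with one. The 2 are Sc4wPfr_884.g31958 and Sc4wPfr_884.g31959, which neighbour each other and were picked out after their values were seen. Of the 21 higher transcripts with a tested neighbour, 0 had a higher one, against 1.88% of all.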
